A study of Capra hircus with 4 samples.

Results

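Genes of the early response to stimulation and stress were followed across the cells of the goat pancreas: FOS, FOSB, JUN, JUNB, EGR1, EGR4, ATF3, DUSP1, ZFP36 and HSPA6. They were taken by symbol from the 27137 genes of the deposited matrix, and all 10 of these were found, each on 1 row whose gene ID and symbol matched the RefSeq gene table. Pancreas came from 4 female Liuyang black goats, 2 aged 10 days, before rumination, and 2 aged 6 months, after its onset. The labels name no genetic change and no treatment, the females are described as twins, and the 10-day animals served as the controls of the study. All tissue was minced, digested warm with collagenase, dispase and DNase, freed of red and dead cells, and captured with 10x 3' chemistry. Cells can be sorted into 4 libraries by the number at the end of their barcode, but which goat, and so which age, a number stands for is not stated. Values are therefore given library by library, without an age, a test or a p-value.

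Immediate early genes are transcribed within minutes of a stimulus from factors already present in the cell, so they need no new protein. FOS and JUN proteins pair into the AP-1 transcription factor, EGR1 and EGR4 are zinc finger factors, and DUSP1 and ZFP36 shut the response down by removing phosphate from MAP kinases and by destroying short-lived mRNAs. The same genes are known to rise when tissue is digested into single cells. In the islet, glucose and calcium entry are known to induce members of this group in beta cells. How much of any level below was set in the animal and how much during digestion cannot be told apart, since no undigested tissue was compared.

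Cell calling left 13216 cells, between 2813 and 3996 per library, with median depths between 6174 and 8935 unique molecular identifiers (UMIs, each 1 captured molecule). Of these, 34 carried barcode letters that occur in more than 1 library. Clusters named from marker genes gave 4991 stellate-like, 2945 endocrine-like, 2522 acinar-like, 1212 immune-like, 500 ductal-like, 347 endothelial-like and 135 mesothelial-like cells, and 564 cells stayed unnamed. The 10 genes and the other response genes described here took no part in the clustering. The summed level of each class's main marker list was higher in the class than in the mean of the other classes in every library compared. Since the clusters were named from these same markers, this gives no separate support for the names. In immune-like cells the mast cell markers summed to at most 3.91 counts per 1000000 UMIs, near the level in other classes. Different clusters held most of a class in different libraries: stellate-like cells lay mainly in clusters 1, 25, 22 and 2 in libraries 1 to 4, acinar-like cells in clusters 5, 24, 28 and 5, and beta-like cells in cluster 3 in libraries 1 and 4 and in cluster 20 in libraries 2 and 3. Ductal-like cells in library 4 (11 cells) and mesothelial-like cells in libraries 1 and 2 (0 cells) were too few to compare.

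Together the 10 genes gave 705702 UMIs, 0.459% of all UMIs in cells. Their share was 0.534%, 0.321%, 0.177% and 0.993% in the order of the library numbers. FOS was seen in 82.7% of cells and JUN in 87.6%, whereas EGR4 was seen in 3.56% and HSPA6 in 7.43%. Levels are given as UMI counts per 1000000 (CPM) summed over the cells of a class in a library. Because capture at the 3' end depends on the transcript, levels are compared between cells and not between genes.

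**Figure D1:**
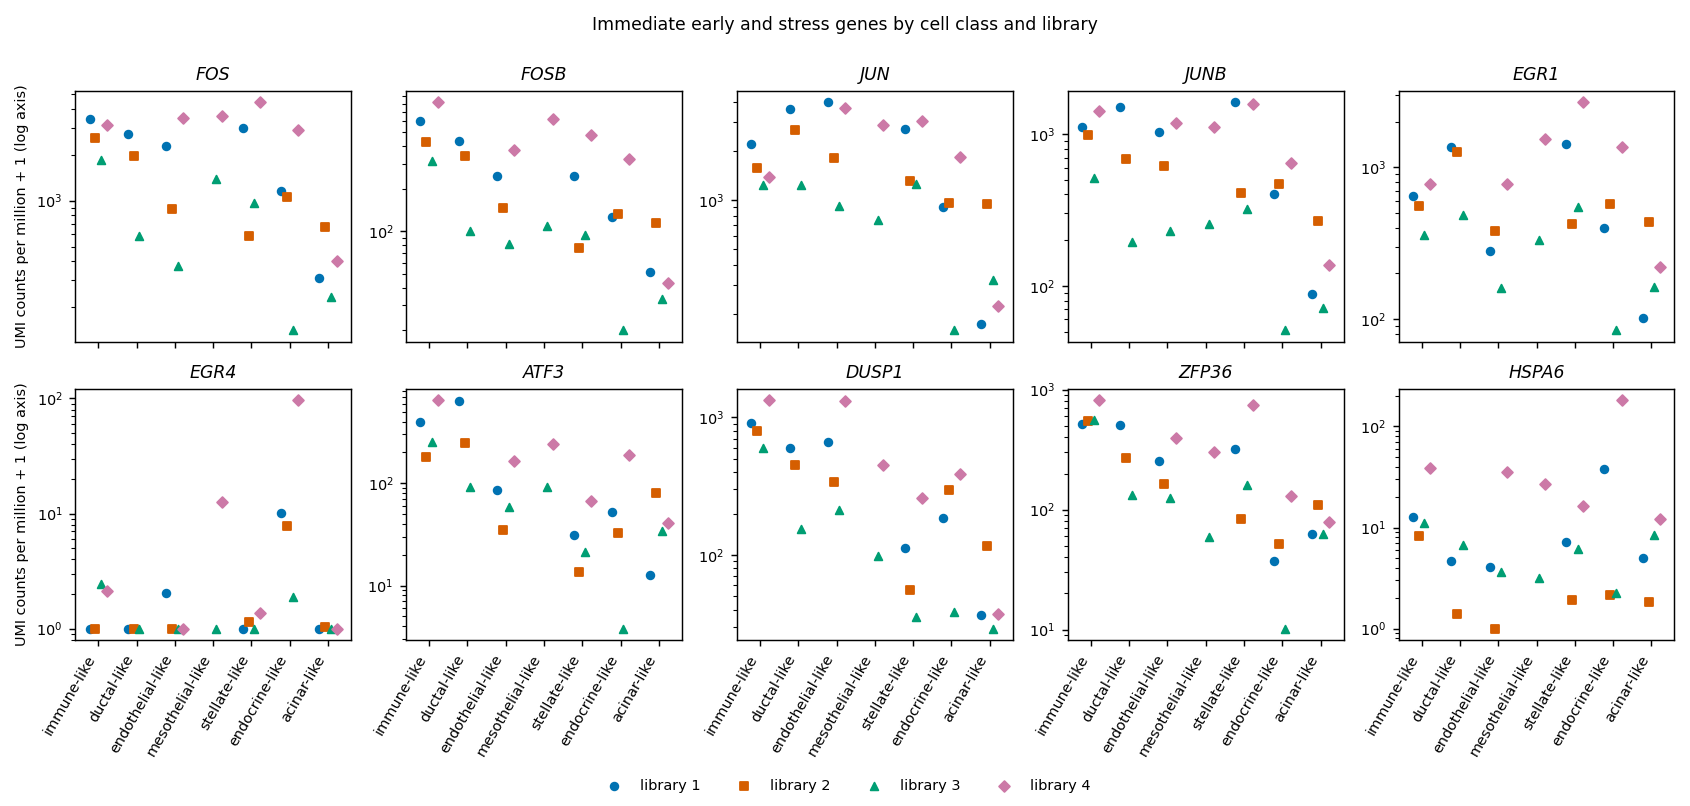
Level of each gene in UMI counts per 1000000 plus 1 (log axis) in 7 cell classes, with 1 point per library, and a level of 0 drawn at 1. Library 3 is low in most panels, and EGR4 stands clear of the floor in endocrine-like cells of library 4 (95.2 CPM).

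FOS (gene ID 102171520), the founding FOS-family partner of AP-1, was abundant in immune-like cells, at 3413, 2569.9, 1833 and 3115 CPM in libraries 1 to 4. In stellate-like cells it reached 3002, 588, 968 and 4414 CPM, and in endothelial-like cells 2270.0, 879, 371 and 3451 CPM. Stellate-like cells were thus above immune-like cells in library 4 and far below them in library 2. Ductal-like cells held 2725, 1953 and 588 CPM in libraries 1 to 3, and mesothelial-like cells 1393 and 3597 CPM in libraries 3 and 4. Endocrine-like cells held 1149.7, 1052 and 140.2 CPM in libraries 1 to 3 and 2889.7 CPM in library 4. Acinar-like cells, the enzyme-making cells, were lowest in libraries 1 and 4, with 311, 671, 233 and 401 CPM in libraries 1 to 4.

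FOSB (100860839), a second FOS-family member, was higher in immune-like cells than in any other class compared in each library, with 606, 425, 315 and 818 CPM. The 11 ductal-like cells of library 4, too few to compare, held 1162 CPM. Its levels in stellate-like cells were 247, 75.7, 94.1 and 477 CPM. Acinar-like cells held 50.4, 113, 32.5 and 42.4 CPM, below immune-like cells in all 4 libraries, and endocrine-like cells 125, 132, 19.0 and 326 CPM.

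JUN (102185423), the partner of FOS in AP-1, had a different leading class. Endothelial-like cells held 3983, 1805, 914 and 3687 CPM in libraries 1 to 4, and ductal-like cells 3598, 2681 and 1228 CPM in libraries 1 to 3. Immune-like cells held 2188, 1580.1, 1238 and 1385 CPM. JUN in immune-like cells therefore lay below endothelial-like cells in 3 libraries and above them in library 3. JUNB (102181201), a JUN relative that often restrains JUN, had a pattern nearer that of FOS (Pearson r = 0.948 over 25 sums of class and library, against 0.861 for JUN), with 1116, 979, 515 and 1411 CPM in immune-like cells and 1624, 406, 319.8 and 1583 CPM in stellate-like cells.

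EGR1 (102188309), a zinc finger factor induced by growth factors, was led by stellate-like and ductal-like cells. Stellate-like cells held 1429.5, 425, 551 and 2699 CPM in libraries 1 to 4, and ductal-like cells 1368, 1265 and 487 CPM in libraries 1 to 3. Stellate-like cells were the highest of the classes compared in libraries 1, 3 and 4, and among the lower ones in library 2. The 11 ductal-like cells of library 4, too few to compare, held 3292 CPM, more than stellate-like cells there. Acinar-like cells held 101, 435, 163 and 219 CPM.

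ATF3 (102183991) is a stress-induced factor of the ATF/CREB family. Of the classes compared, it was highest in immune-like cells in libraries 3 and 4 (252 and 644 CPM). In libraries 1 and 2 it was highest in ductal-like cells (639.6 and 245 CPM). The 11 ductal-like cells of library 4, too few to compare, held 1652 CPM, more than immune-like cells there. Stellate-like cells held only 30.1, 12.6, 20.3 and 66.5 CPM in libraries 1 to 4. DUSP1 (102180080), the phosphatase that switches off MAP kinases, was at 907, 796, 594 and 1329 CPM in immune-like cells and at 110.5, 54.7, 34.2 and 260.2 CPM in stellate-like cells. These stellate-like values lay below the immune-like ones in every library, although FOS and EGR1 in the same cells were among the highest in libraries 1 and 4.

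ZFP36 (102183627), which binds AU-rich mRNAs and speeds their decay, was the only one of the 10 with neighbouring classes whose ranges over libraries did not overlap, and then for 1 of its 6 neighbouring pairs. That pair was immune-like over ductal-like cells. It leaves out the 11 ductal-like cells of library 4, which held 974 CPM, more than immune-like cells of any library. The share of all genes with such a pair is not given here, so the count is not read as a trait of ZFP36. Immune-like cells held 521, 546, 558 and 815 CPM. Endocrine-like cells held 36.4, 50.3, 9.16 and 128 CPM, the lowest class in each library but for library 4, where acinar-like cells had 77.4 CPM. For the other 9 genes, 0 of 6 neighbouring pairs in the order of medians were separated, so that order is not resolved by these libraries.

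To set each class against the rest, the log2 ratio of its CPM over the mean CPM of the other classes was taken inside each library, with 1 CPM added to both. A gene was called when that ratio reached 1 or -1 in every library compared, with at least 20 counts on the higher side. Mesothelial-like cells were compared in 2 libraries, ductal-like cells in 3 and the other classes in 4.

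Immune-like cells had 4 of the 10 called higher, against 6.09% of the 7387 genes with enough counts. These were ATF3 with a median log2 ratio of 1.73 (range 1.15 to 2.33), ZFP36 with 1.66 (1.14 to 2.61), DUSP1 with 1.58 (1.44 to 2.66) and FOSB with 1.42 (1.15 to 2.11). The 4 combine 2 transcription factors with 2 brakes on the response. Library 4 was compared without its 11 ductal-like cells. These held 1162 CPM of FOSB, 1652 CPM of ATF3 and 974 CPM of ZFP36, above the 818, 644 and 815 CPM of immune-like cells. For DUSP1 they held 1042 CPM, below the 1329 CPM of immune-like cells. Whether the 4 calls hold with these cells included was not tested. FOS had a median of 1.09 but only 0.08 in library 4, and JUN and EGR1 had medians of -0.01 and -0.15. None was called lower, against 25.5% of genes, and EGR4 and HSPA6 had too few counts. With a minimum of 1000 UMIs per cell and a new clustering, only DUSP1 was still called. ATF3 also lost its call with the 10 leading acinar genes left out of the totals and by the mean over cells.

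Stellate-like cells had 2 members called lower, ATF3 with a median log2 ratio of -2.49 (range -3.08 to -1.93) and DUSP1 with -2.26 (-2.84 to -1.43), against 13.7% of 12640 genes, and 0 called higher, against 6.04%. In the same cells EGR1 had a median of 1.21 and ratios above 1 in libraries 1, 3 and 4, but -0.59 in library 2. Without library 2, EGR1 was called higher. Set against all other cells of the library summed, neither ATF3 nor DUSP1 was called. In every library both also lay below their level in barcodes with 10 to 100 UMIs, which hold mostly RNA from outside cells. ATF3 stood there at 41.1, 76.7, 29.3 and 71.2 CPM in libraries 1 to 4, and DUSP1 at 130.6, 176.1, 49.8 and 295.0 CPM. How much of what stellate-like cells held of these genes was RNA from outside cells was not measured, so it is not read as their own expression.

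Endocrine-like cells had 1 member called lower, ZFP36 with -2.67 (range -4.17 to -1.86), against 17.5% of 12701 genes, and 0 called higher, against 7.28%. ZFP36 in these cells lay below its level in barcodes with 10 to 100 UMIs in every library, 166.9, 181.8, 70.2 and 213.5 CPM in libraries 1 to 4. When beta-like cells were left out, the other endocrine-like cells had 5 members called lower, against 18.4% of 11148 genes, with FOSB at -1.69, JUN at -2.02, ATF3 at -2.85, DUSP1 at -2.48 and ZFP36 at -2.90. None was called higher there, against 5.92%. EGR4 had a median log2 ratio of 2.99 in endocrine-like cells, with 3.06, 2.92, 0.61 and 4.73 in libraries 1 to 4. It was not called because library 3 missed both the fold and the count minimum, with 8 counts, and without that library it was called higher. Without library 4, ATF3 was also called lower, with a median of -2.15.

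Acinar-like cells had 4 members called lower, FOS, JUNB, DUSP1 and ZFP36, but 56.8% of 12843 genes were called lower there too, and 0 were called higher, beside 0.491% of genes. Each of these 4 members lay below its level in barcodes with 10 to 100 UMIs in every library. The median log2 ratio of the 10 was -2.14 in acinar-like cells, beside -1.77 for all genes with enough counts. With the 10 leading acinar genes left out of the totals, 0 members were called, and 0 after centring on the median of all genes. Mesothelial-like cells had HSPA6 called lower at -1.04 in 2 libraries, beside 18.3% of 8609 genes, on 1 and 29 counts in that class, and 0 called higher, beside 4.04%. The call is against a mean, and in library 4 endocrine-like cells stood at 180 CPM. Mesothelial-like cells there held 25.9 CPM, above stellate-like (15.5) and acinar-like cells (11.1) and below immune-like (37.9) and endothelial-like cells (34.3). In library 3 their 2.16 CPM was above endocrine-like cells (1.23) only. Ductal-like cells had 0 called, beside 5.48% of 8004 genes higher and 16.3% lower, and endothelial-like cells 0, beside 8.39% of 6017 genes higher and 18.3% lower. In ductal-like cells ATF3 had a median ratio of 1.85 and EGR1 of 1.26, each missing the fold in library 3 (0.25 and 0.82). Without library 3, 4 members were called in ductal-like cells, ATF3 and EGR1 higher and EGR4 and HSPA6 lower. Without library 2, 8 were called lower in acinar-like cells, all of the 10 but EGR4 and HSPA6. The shares of all genes called with a library left out are not given here, so these 2 counts are not read as a trait of the members.

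**Figure D2:**
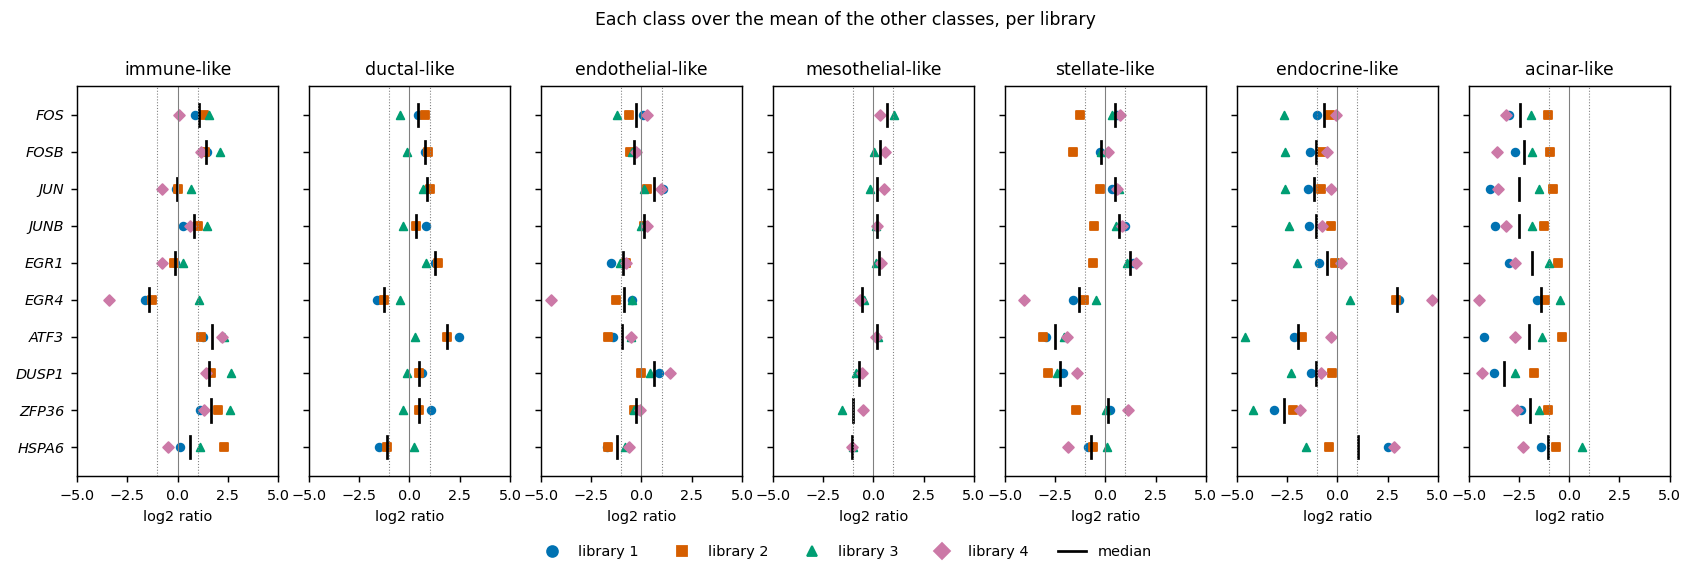
Log2 ratio of each class over the mean of the other classes for the 10 genes, with 1 point per library, a black bar at the median and dotted lines at -1 and 1. FOSB, ATF3, DUSP1 and ZFP36 lie right of 1 in all 4 libraries in immune-like cells, and ATF3 and DUSP1 lie left of -1 in stellate-like cells.

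Inside the immune-like class the genes were unevenly spread. C1Q macrophage-like cells held 6746, 1862 and 5685 CPM of FOS in libraries 1, 3 and 4, against 1193.5, 2791 and 2435 CPM in cells led by S100A8 and FCN1. JUN behaved alike, with 4085, 1355 and 2692 CPM in C1Q macrophage-like cells and 885, 1338 and 889 CPM in the S100A8 and FCN1 group. The macrophage-like cells were lower in FOS and close in JUN in library 3, and 0 members were called higher (12.4% of 2574 genes) and 0 lower (3.34%). T and NK-like cells held little ATF3 (34.8 and 58.7 CPM in libraries 1 and 4) and DUSP1 (194 and 305 CPM), and B and plasma-like cells less FOS, at 791 and 479 CPM. The C1Q macrophage-like and the S100A8 and FCN1 groups held at least 531 CPM of DUSP1 in every library with 20 or more of their cells, whereas cells led by XCR1 and CLEC9A held 205 and 226 CPM in libraries 1 and 4. The make-up of the class differed between libraries. Library 4 held 409 of the 467 cells of the S100A8 and FCN1 group, and library 2 only 34 immune-like cells of any kind. Between libraries, 9 of the 10 genes were at least 2-fold apart in C1Q macrophage-like cells (32.1% of 6053 genes), 8 of them lowest in library 3 (12% of genes) and 5 highest in library 1 (4.89%). In the S100A8 and FCN1 group 1 gene, FOS, was that far apart, beside 46.1% of 3867 genes.

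**Figure D3:**
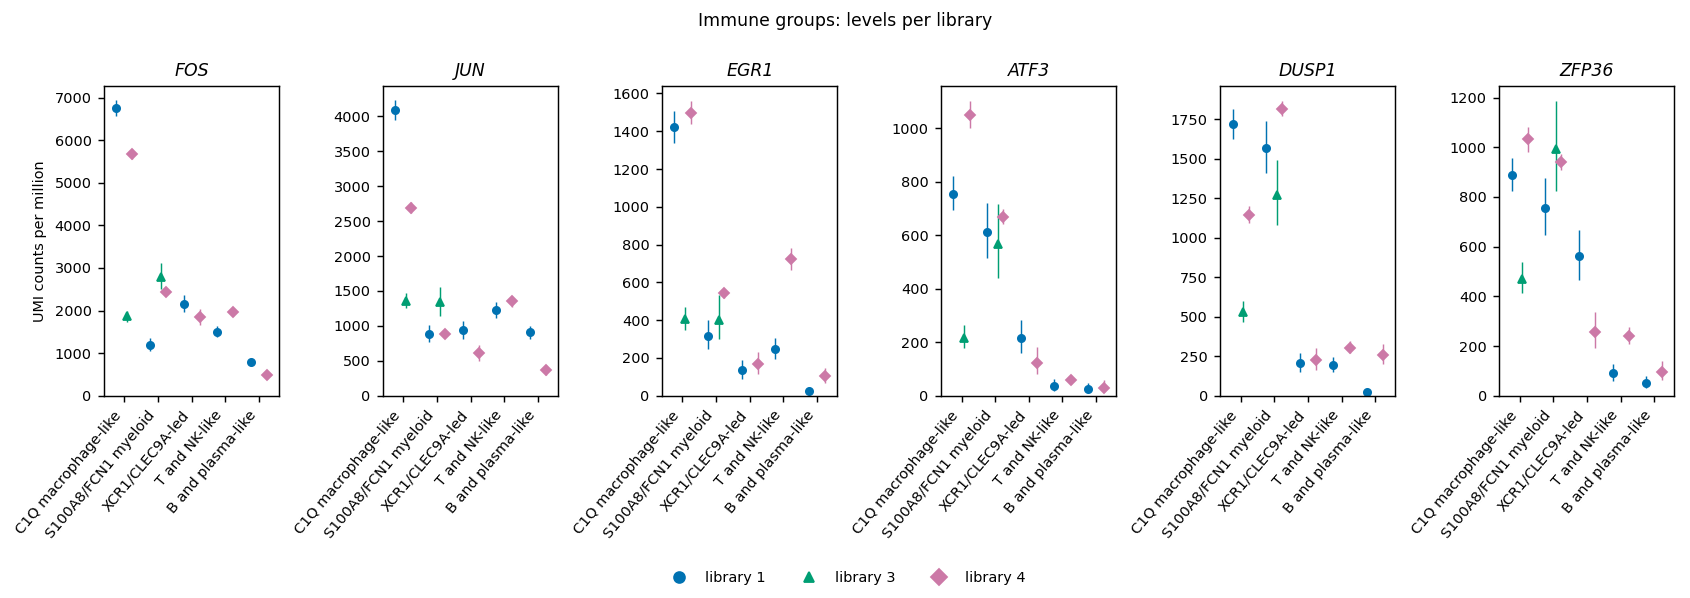
UMI counts per 1000000 of 6 genes in 5 immune groups, with 1 point per library with at least 20 cells and bars for the 95% Poisson interval of the counts. C1Q macrophage-like cells of libraries 1 and 4 hold the highest FOS, JUN and EGR1 levels, whereas DUSP1 and ZFP36 are also high in the S100A8 and FCN1 group.

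EGR4 (102185281), a zinc finger factor related to EGR1, was found, among named cells, mainly in beta-like cells, the insulin makers. There it had 102, 40, 8 and 1144 counts in libraries 1 to 4, or 24.0 CPM (95% Poisson interval 19.6 to 29.1), 10.95 (7.83 to 14.9), 2.03 (0.876 to 3.999) and 110.1 (103.8 to 116.6). Stellate-like cells, the most numerous class, held 0, 1, 0 and 3 counts, and ductal-like cells 0 in each library. Among other endocrine groups, PPY-led cells held 6, 0, 0 and 1 counts, alpha-like cells 1, 0, 0 and 0, and delta-like cells 2, 1, 0 and 0 in libraries 1 to 4. The remaining endocrine cells, cluster 7, carried beta, alpha and delta markers together and were left out of these groups. They held 34 EGR4 counts in 16 cells of library 4, or 95.4 CPM (66.0 to 133), close to the beta-like level there. In library 2 they held 6 counts in 73 cells (8.26 CPM), and in libraries 1 and 3, with 1 and 5 cells, 3 and 0 counts. Outside the endocrine-like class the one count above 10 in a named class was in mesothelial-like cells of library 4, with 13 counts (11.6 CPM). This was below the 16.1 CPM (14 counts) in barcodes of that library with 10 to 100 UMIs. How much of it was RNA from outside cells was not measured, so it is not read as expression.

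The share of beta-like cells with an EGR4 UMI, after thinning every cell to 2000 UMIs, was 5.05% (95% exact interval 2.85% to 8.19%), 2.46% (1.13% to 4.62%), 0.233% (0.006% to 1.29%) and 17.2% (14.1% to 20.7%) in libraries 1 to 4. Unthinned it was 15.8%, 5.46%, 0.699% and 47.2%, at median depths of 12614, 7872, 7937 and 18004 UMIs. Among thinned stellate-like cells the share was 0% in all 4 libraries, which allows up to 0.235%, 0.292%, 0.175% and 0.308%. The library 3 share in beta-like cells rests on 1 cell, and its interval reaches below the 0.175% that 0 stellate-like cells of that library allow.

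In library 4 the 92 thinned beta-like cells with an EGR4 UMI could be set beside the 442 without one. Thinning sets this split in part, since 47.2% of these cells had an EGR4 UMI before it. They held 4386 CPM of FOS against 3140 CPM, 2043 CPM of EGR1 against 1446 CPM, 2821 CPM of JUN against 1965 CPM, and 212 CPM of HSPA6 against 231 CPM. JUNB, FOSB, ATF3, DUSP1 and ZFP36 were also the higher in the cells with an EGR4 UMI, which leaves HSPA6 as the exception among the other 9 members. The 2 sets had like median depths, 17786 and 18059 UMIs. This was seen in 1 library, with no replicate and no test.

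HSPA6 (102185412), an inducible HSP70 chaperone made after heat and protein damage, was also mainly a beta-like gene, but in 2 libraries only. Beta-like cells held 435, 7, 6 and 2172 counts, or 102, 1.92, 1.52 and 209 CPM, in libraries 1 to 4. PPY-led cells held 3.08, 0, 0.588 and 11.4 CPM, and stellate-like cells 6.15, 0.938, 5.15 and 15.5 CPM. In library 3 the beta-like level, on 6 counts (95% Poisson interval 0.559 to 3.31 CPM), lay below that of stellate-like cells (3.96 to 6.57), acinar-like cells (7.41 CPM) and immune-like cells (10.1 CPM). In library 2 the intervals of beta-like (0.771 to 3.95) and stellate-like cells (0.377 to 1.93) overlapped. HSP70 genes are close copies of each other, so some reads of HSPA6 may belong to a relative. C1Q macrophage-like and T and NK-like cells of library 4 had 91.9 and 67.7 CPM.

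FOS, JUN and DUSP1 were likewise higher in beta-like cells than in PPY-led cells, the next largest endocrine group. FOS stood at 2018, 1283, 182 and 3175 CPM in beta-like cells and 571, 466, 77.7 and 1040 CPM in PPY-led cells of libraries 1 to 4. DUSP1 stood at 411, 423, 67.5 and 434 CPM in beta-like cells and 52.5, 63.8, 10.0 and 97.9 CPM in PPY-led cells. The beta-like value was the higher in each library. In every library PPY-led FOS and DUSP1 lay below their levels in barcodes with 10 to 100 UMIs. Beta-like FOS did so in library 3 (182 against 339 CPM). How much of these levels was RNA from outside cells was not measured. By the same fold rule 4 members were called higher in beta-like cells, against 4.36% of 7473 genes, with median log2 ratios of 2.67 for DUSP1, 1.73 for JUN, 1.53 for FOS and 1.41 for FOSB. None was called lower, against 2.14%. EGR4, ATF3 and HSPA6 lacked counts in at least 1 library, and these groups were compared after seeing the data.

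**Figure D4:**
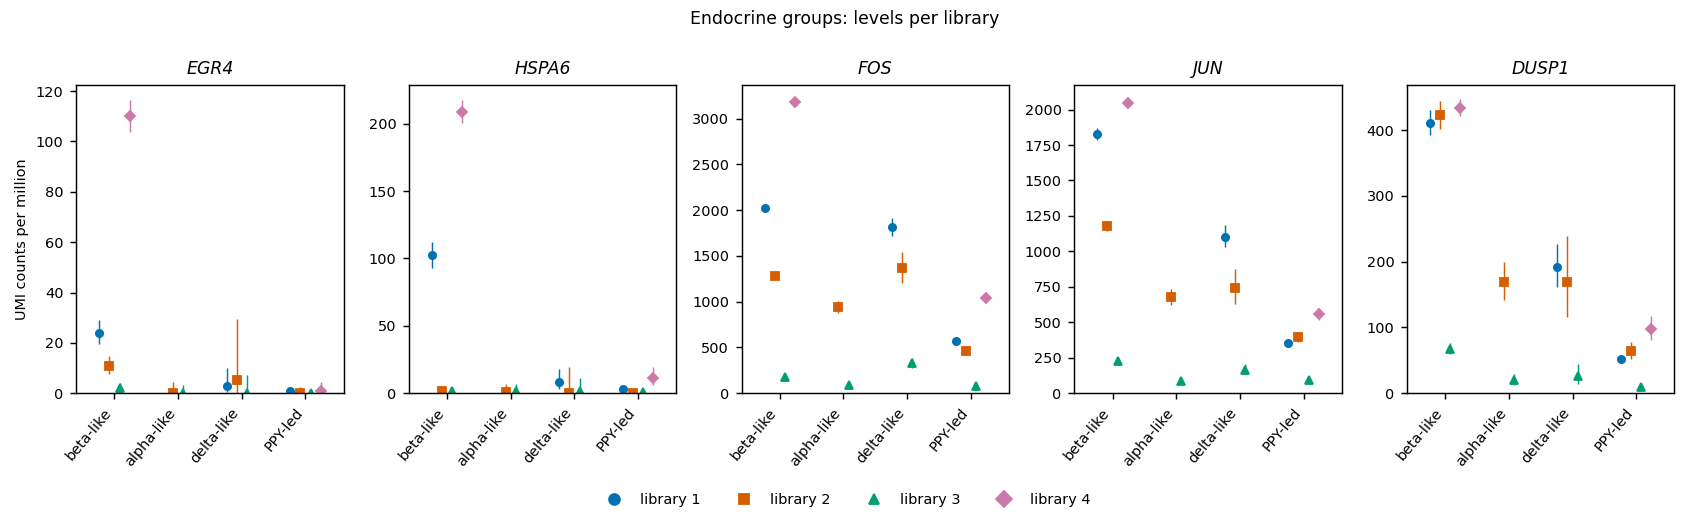
UMI counts per 1000000 of 5 genes in 4 endocrine groups, with 1 point per library with at least 20 cells and bars for the 95% Poisson interval of the counts. EGR4 and HSPA6 rise above the axis mainly in beta-like cells of libraries 1 and 4, and DUSP1 is similar in beta-like cells of libraries 1, 2 and 4 (411, 423 and 434 CPM).

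Among endothelial groups, EGR1 was lower in lymphatic than in blood endothelial cells in both libraries compared, at 202 and 201.5 CPM against 471 and 493 CPM. It was the 1 member called lower (median log2 ratio -1.25), beside 6.25% of 3907 genes, and 0 were called higher, beside 8.55%. FOS did not separate the groups, with 2635 and 1021 CPM in lymphatic cells and 1366 and 792 CPM in blood endothelial cells of libraries 1 and 2.

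The level of the genes depended strongly on the library, within 1 class as well. In beta-like cells all 10 were at least 2-fold apart between libraries, as were 32.3% of 10831 genes. All 10 were lowest in library 3, where 7.04% of genes were both 2-fold apart and lowest, and all 10 were highest in library 4, where 3.61% were both 2-fold apart and highest. Between these libraries FOS in beta-like cells was 4.12 apart on the log2 scale, ATF3 5.49 and DUSP1 2.67. Over the whole endocrine-like class 10 were 2-fold apart as well (32.3% of 12434 genes), 9 of them lowest in library 3 (4.37% of genes) and 10 highest in library 4 (4.75%). Beta-like cells of libraries 2 and 3 came mainly from the same cluster, with median depths of 7872 and 7937 UMIs, and held 1283 and 182 CPM of FOS. In PPY-led cells 8 genes had enough counts and were 2-fold apart (46% of 7886 genes), each lowest in library 3 (4.74% of genes) and highest in library 4 (21.5%).

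Other classes did not share 1 order of libraries. In stellate-like cells 9 genes were 2-fold apart (31.9% of 11887 genes), 8 of them highest in library 4 (7.59% of genes) and 6 lowest in library 2 (11% of genes). In acinar-like cells 7 were 2-fold apart (85.2% of 11336 genes), and all 7 were highest in library 2 (23.8% of genes). In ductal-like cells 8 were 2-fold apart (36.5% of 7955 genes), highest in library 1 (13.6% of genes) and lowest in library 3 (7.94%). Endothelial-like cells had 8 apart (38.8% of 6041 genes), 7 of them lowest in library 3 (13.9% of genes) and 7 highest in library 4 (8.05%). Mesothelial-like cells had 9 apart (28.5% of 5852 genes), all lower in library 3 and higher in library 4 (19.2% of genes). In immune-like cells 6 of the 9 with enough counts were 2-fold apart (53.9% of 6758 genes), all highest in library 4 (24.4% of genes). Mesothelial-like cells lay in cluster 29 alone, PPY-led cells in cluster 6 and C1Q macrophage-like cells in cluster 14, in every library compared. Their levels thus differed between libraries within the same cluster, and the cause was not tested. As the clusters that make up the other classes differ between libraries, a change of level and a change of cells cannot be told apart there.

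Per cell, thinned to 2000 UMIs, the median number of UMIs from the 10 genes was 0 in endocrine-like cells of library 3, beside 6, 5 and 16 in libraries 1, 2 and 4. In stellate-like cells it was 18, 5, 5 and 25 in libraries 1 to 4, and in acinar-like cells 1, 5, 1 and 2. FOS had a UMI in 73.7%, 67.2%, 14.7% and 90.9% of thinned endocrine-like cells in libraries 1 to 4. At 140.2 CPM, the FOS level in endocrine-like cells of library 3 was below the 339 CPM in barcodes of that library with 10 to 100 UMIs. Such barcodes hold mostly free RNA. How much of the FOS in these cells was free RNA was not measured, so the share there is not read as expression. In library 4 the values were 2889.7 CPM in endocrine-like cells and 1204 CPM in such barcodes.

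**Figure D5:**
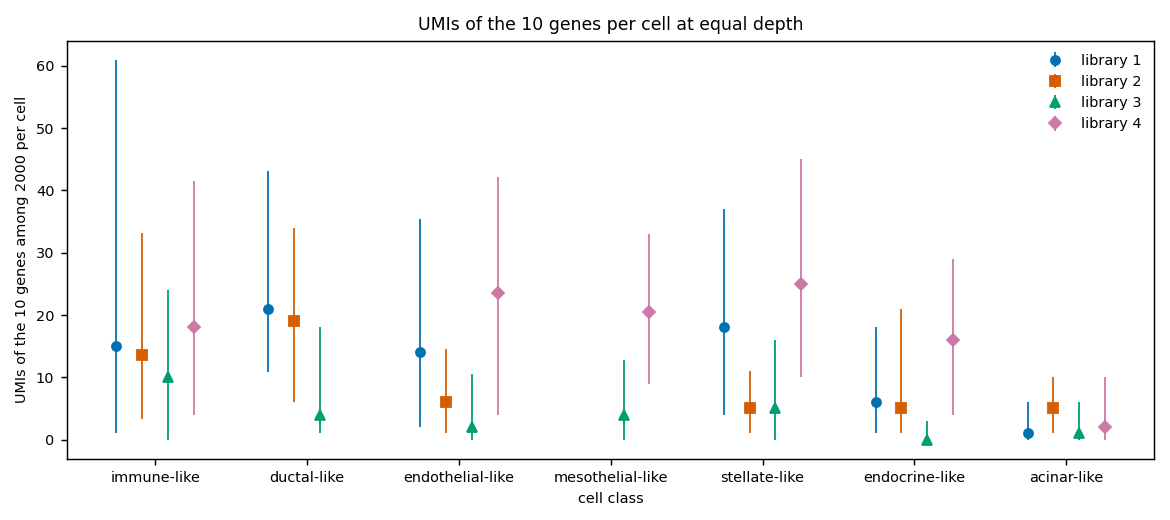
UMIs of the 10 genes among 2000 UMIs per cell, by class and library; points are medians over cells and bars run between the 10th and 90th percentiles. Endocrine-like cells of library 3 have a median of 0 and those of library 4 a median of 16.

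RNA outside cells was measured in barcodes with 10 to 100 UMIs. The 10 genes made up 2778, 3399.7, 1191 and 3354 CPM there in libraries 1 to 4. Over this, their level in cells was 1.92, 0.945, 1.48 and 2.96 times as high. As a share of UMIs, the 10 genes together were thus no higher in library 2 cells than in its near-empty barcodes. Of the single members, only JUN (1.26) and JUNB (1.17) had a ratio above 1 in library 2. Against barcodes with 5 to 50 UMIs the ratio for the 10 together was 0.809 in library 3 and 1.05 in library 4, so in those libraries it depended on the barcodes chosen. Free RNA was low in the same library, 3, in which beta-like cells were low, and its part in the levels was tested only at a fixed share: with 5% of UMIs subtracted as free RNA, the calls in immune-like, stellate-like and endocrine-like cells were made as before.

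Other genes of the response were read from 5 lists, of which 59 of 65 genes were matched by symbol. In immune-like cells 5 of 20 other AP-1 and immediate early factors were called higher and 0 lower, against 6.09% and 25.5% of all genes, led by the nuclear receptor NR4A2 (median log2 ratio 3.09) and IER3 (2.71), which protects from apoptosis. The median over the 20, of which 11 had enough counts, was 1.49, beside -0.73 for all genes with enough counts. Of 8 matched secreted or inflammatory early genes, 4 were higher and 2 lower, led by the neutrophil chemokine CXCL8 (8.77) and the matricellular CTGF (-4.44). Among 7 phosphatases and mRNA decay factors, DUSP2 (6.22) and DUSP6 (1.91) were higher and 0 lower. Of 16 heat shock genes, HSPB8 (-4.42) and DNAJB4 (-1.71) were lower and 0 higher.

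Endothelial-like cells had 2 of these 20 factors called higher, led by KLF2 (2.40), and 3 lower, among them NR4A3, with 0 counts in these cells. These counts lie near the 8.39% higher and 18.3% lower among all genes. KLF2 is a factor known to respond to flow in vessels. Of 16 heat shock genes the cochaperones HSPB8 (2.56) and BAG3 (1.95) were higher in endothelial-like cells, again near the 8.39% of all genes, and 0 lower, beside 18.3%. In endocrine-like cells, where 17.5% of all genes were called lower, 8 of the 20 factors were lower, led by IER3 (-4.50) and KLF2 (-4.49), and 7 of 8 secreted or inflammatory genes were lower, led by CXCL8 (-7.03) and CYR61 (-4.91). Of 7 phosphatases and mRNA decay factors, 5 were lower in endocrine-like cells, led by ZFP36L1 (-5.99) and DUSP2 (-4.87), and 0 higher. Of 8 integrated stress response genes, GADD45B (-2.54) and PPP1R15A (-1.62) were lower in endocrine-like cells, near the 17.5% of all genes. GADD45A was the 1 of these 8 called higher in ductal-like cells (1.12), near the 5.48% of all genes there. Stellate-like cells had NR4A2 (-3.92) and EGR3 (-1.99) lower, and mesothelial-like cells had 4 factors lower, led by EGR3 (-2.39) and EGR2 (-1.99), and 1 higher, near the 18.3% lower and 4.04% higher among all genes. The stellate-like count of 2 of 20 is likewise near the 13.7% of all genes called lower there. In the same cells 2 of 7 phosphatases and mRNA decay factors were lower, led by DUSP2 (-5.50). Of 8 secreted or inflammatory genes 3 were lower there, led by CXCL8 (-6.61). The small heat shock protein HSPB1 (1.42) was the 1 of 16 heat shock genes called higher in mesothelial-like cells, near the 4.04% of all genes. In acinar-like cells 12 of 20 factors and 10 of 16 heat shock genes were lower, read beside the 56.8% of all genes.

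Over 25 sums of class and library, the 5 genes most like the mean of the 10 members were ATF4 (Pearson r = 0.908), PPP1R15A (0.897), CSRNP1 (0.887), CEBPB (0.884) and PNRC1 (0.853), among 8207 genes. Among the members, FOS and FOSB went together most closely (r = 0.955), whereas EGR4 had r = 0.253 with FOS and -0.14 with ZFP36. EGR4 was most like INS, the insulin gene (0.819), and HSPA6 most like DNAJB1, an HSP70 partner (0.813). These sums share libraries, cells and depth, and the coefficients are a description.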

How the data were processed

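The matrix deposited by the authors holds whole UMI counts per gene and barcode for 4 aggregated, unfiltered libraries. Per the submitters' processing notes, bcl2fastq 5.01, Cell Ranger 3.1.0 and Seurat 3.1.1 were used, and Cell Ranger 5.0.1 is named in the deposited matrix, per the file headers. The genome build is not given in the sources used here, so no coordinates are printed. The libraries held between 43297855 and 82817057 UMIs.

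Cells were barcodes with at least 500 genes and with more UMIs than 1/10 of a high value per library, the 99th percentile over its 8000 deepest barcodes. Scrublet in scanpy 1.11.5 removed doublets per library. It marked almost none in libraries 2 and 4, so removing the 5% highest scores was an alternative. Leiden clustering (2000 variable genes, 30 components, 15 neighbours, resolution 1) used igraph 0.11.9 without batch correction. A name needed 3 markers raised 2-fold in 10% of cells (157 of 172 markers were matched). A cluster with over 0.5 and at least 4 of another lineage's markers, or with all 5 cycling markers, stayed unnamed, and these thresholds were set after seeing the data. The names are rebuilt here, so the study's annotation may divide the cells otherwise.

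Counts were summed per class and library and given as CPM. The log2(CPM + 1) scale shrinks differences between low levels. Poisson and exact binomial intervals (95%) and the floor of 3 counts cover counting error only. All 10 members are described. Of each list up to 2 called genes with the most extreme median ratio are named in the classes described for it. Lists and classes that are not described can hold called genes too. Members and lists were chosen with earlier results of these data known, and comparisons inside a class were added later. Tested on simulated data for each class, the rule found 100% of genes shifted by log2 3. Of genes shifted by log2 1.5 it found 45% in immune-like, 54% in stellate-like and 39% in endocrine-like cells. Unchanged genes called numbered 0 in each of these 3 classes and 198 of 8582 in mesothelial-like cells, which have 2 libraries. The simulation gave all classes of a library the same profile before the shift, with a negative binomial dispersion of 0.05. It held no offset of a whole class, as seen in acinar-like cells, and shifted no genes as low as EGR4. These rates may therefore not hold for the real data.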

Additional observations from a re-analysis of the deposited data

Results flagged for a closer look

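Both results concern cells outside every comparison. Cluster 4 was left unnamed because it carried endocrine and neutrophil markers together, and 388 of its 414 cells came from library 4. EGR4 was at 69.0 CPM in these cells of library 4 (217 counts), beside 110.1 CPM in beta-like cells and 0.371 CPM in stellate-like cells of that library. HSPA6 was at 118.7 CPM (373 counts), beside 209 CPM in beta-like cells and 15.5 CPM in stellate-like cells. The median depth of these cells was 5601 UMIs, beside 18004 UMIs in beta-like cells of library 4.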

How the results depend on the processing

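No paired analysis was possible because the animal behind each library number is not stated, so the replicate numbers of the labels belong to no library here. For single genes, 893 of 970 values under an alternative moved by less than the spread over libraries or kept their call, 77 moved and 0 turned their direction. The counts of members called moved as follows. In acinar-like cells (4) the count was 0 against all other cells summed, 0 after centring, 0 without the 10 leading acinar genes, and between 4 and 8 with a library left out. In ductal-like cells (0) it was 3 against all other cells summed, 1 by the mean over cells and 2 at 1.5-fold, and between 0 and 4 with a library left out. In endocrine-like cells (1) it was 2 with a minimum of 1000 UMIs, 5 without beta-like cells (added after seeing the data), and between 1 and 2 with a library left out. In stellate-like cells (2) it was 0 against all other cells summed. In endothelial-like cells (0) it was 1 against all other cells summed, 1 with a minimum of 1000 UMIs and 2 at 1.5-fold. In mesothelial-like cells (1) it was 0 with a pseudocount of 10 CPM, 0 against all other cells summed, 0 after centring and 0 by the mean over cells. In immune-like cells (4) it was 1 with a minimum of 1000 UMIs. ATF3 was not among the 3 called there without the 10 leading acinar genes or by the mean over cells. The cause of these moves was not tested. Shares of all genes called are given here only for the main setting and for endocrine-like cells without beta-like cells, so the other counts have no share beside them. At 5000 UMIs per cell, 94.9%, 99.04%, 78.2% and 98.8% of cells in libraries 1 to 4 had a UMI of the 10 genes, against 91.0%, 94.4%, 67.0% and 97.2% at 2000. Against barcodes with 5 to 50 UMIs, the level in cells over free RNA was 1.65 in library 1, 0.809 in library 3 and 1.05 in library 4. The 34 immune-like cells of library 2 and the 8 EGR4 counts of beta-like cells in library 3 limit what depth can show.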
